A study of Danio rerio with 6 samples.

Results

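Phototransduction genes encode the proteins by which rods and cones of the retina turn light into an electrical signal. They were selected here by gene name from the whole table, by the usual symbols of cone opsins, transducin, phosphodiesterase 6, the cyclic nucleotide-gated channel, guanylate cyclase and its activators, the shutoff proteins, the retinoid isomerase RPE65, the regulators crx, nrl and nr2e3 and the disc protein prph2. This gave 66 genes of 32520. By their known cell type, 23 were cone genes, 12 rod genes, 25 genes that rods and cones share or for which the name does not settle the cell type, 3 broadly expressed genes and 3 RPE65 genes. The 66 genes carried 52 names, and 27 of them shared a name with another gene, so those are given with their Ensembl identifiers.

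The libraries came from zebrafish embryos of a transgenic line in which sp7, an osteoblast transcription factor gene, drives green fluorescent protein (GFP). All 6 libraries are of GFP-positive cells collected by sorting at 4 days post fertilization. The 3 control libraries came from embryos without the chemical, and the labels do not say whether their medium held the solvent dimethyl sulfoxide. The 3 exposed libraries came from embryos kept in 200 nM bisphenol A (BPA), an estrogenic plasticizer, from 24 hours post fertilization. Each arm pooled 400 embryos, and nothing states that the 3 libraries of an arm were separate pools, so p-values measure only the spread between these libraries, which may be technical.

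In the dark, a photoreceptor holds cyclic GMP high and its cation channels open. Light activates an opsin, which activates the G protein transducin, which releases the inhibitory subunit from phosphodiesterase 6, so that cyclic GMP falls and the channels close. Opsin kinases, arrestins and the RGS9 complex then shut the cascade off, and guanylate cyclase, driven by calcium-sensing activators, restores cyclic GMP. Rods and cones use separate versions of most of these proteins, and zebrafish retain extra copies from a whole-genome duplication. The larval zebrafish retina sees mainly through cones at this age, while the cells of the pineal organ use part of the same gene set.

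Library totals ranged from 30748435 to 43403568 counts. The members other than the 3 broadly expressed genes took 0.185% to 0.193% of the counts in the control libraries and 0.0972% to 0.0992% in the exposed ones, with no overlap. The cells are labelled as osteoblasts. Of the osteoblast markers, SP7 was at 6.87 ± 1.55 CPM (counts scaled to a common library size; SD, n = 3) without BPA and 8.49 ± 0.355 CPM under it (adjusted p = 0.175). The type I collagen gene COL1A1 (ENSDARG00000035809) rose from 2715 ± 23.8 to 4037 ± 15.6 CPM, and col1a1a fell from 3048 ± 82.7 to 2718 ± 52.0 CPM. COL1A2 rose from 2350 ± 34.7 to 2826 ± 30.2 CPM and SPARC from 1592 ± 38.0 to 1962 ± 9.45 CPM. The gene bglap, which encodes osteocalcin, was at 0 counts throughout. Of 17 tested osteoblast genes 4 fell and 5 rose (median log2 fold change -0.03), while of all genes tested 18.7% fell and 20.1% rose. In the same libraries the cone opsin genes together stood at 901 to 952 CPM in the controls, so photoreceptor transcripts were present in the sorted material. In these bulk libraries fewer photoreceptor cells and less RNA per cell cannot be told apart.

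Of the 66 genes, 59 passed the filter on low counts and were tested, and 33 of these fell, 3 rose and 23 did not pass an adjusted p of 0.05 (edgeR quasi-likelihood test, Benjamini-Hochberg adjustment over all genes). Of all 21194 genes tested, 18.7% were lower and 20.1% higher by the same rule, 38.8% in either direction. The groups did not overlap for 35 tested members that were lower and 3 that were higher, against 23.2% and 25.2% of all genes tested. The median log2 fold change, exposed against control, was -0.72 over the tested members and 0.00 over all tested genes, rounded to 2 decimals. A fall to a log2 fold change of -1 or lower was called for 17 members, against 3.5% of all genes. The 33 that fell had a median level of 15.7 CPM over all libraries and the 23 without a call a median of 1.11 CPM.

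**Figure D1:**
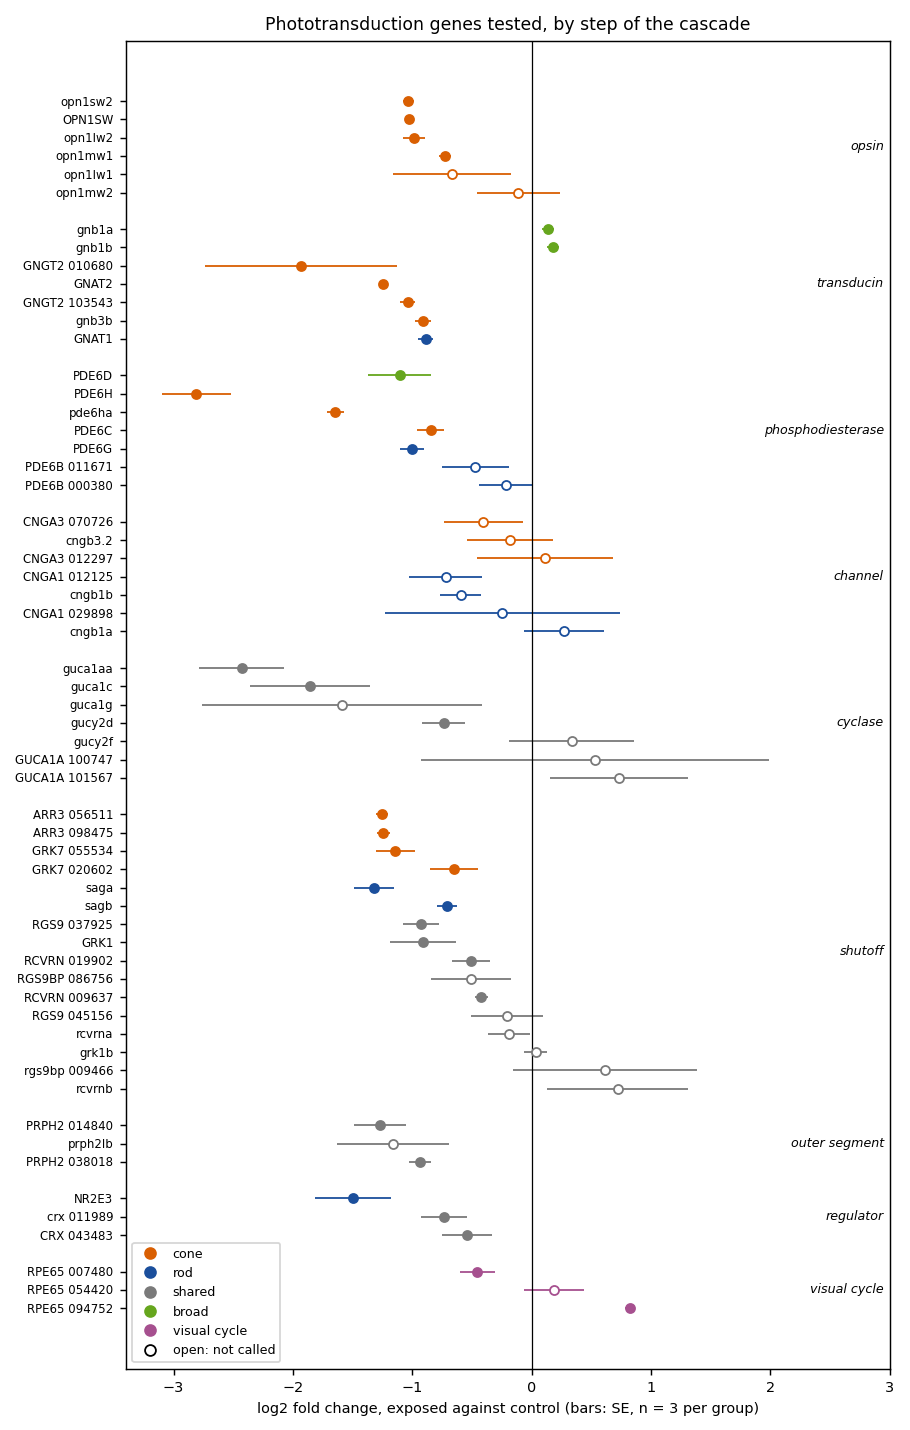
Log2 fold change, exposed against control (horizontal axis), of the 59 tested genes, grouped by step of the cascade; colours give the cell type class, bars the standard error (SE) over 3 libraries per group, filled points genes past an adjusted p of 0.05. Nearly all filled points lie left of 0; the 3 to the right are gnb1a, gnb1b and 1 RPE65 gene, and no filled point stands among the channel genes.

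The 7 members below the filter were the cone genes cngb3.1, opn1mw3 and opn1mw4, the rod gene nrl, and the shared genes GUCA1B, guca1d and prph2la. None of them had more than 36 counts in any library. The green opsin gene opn1mw4 had 0 counts throughout, which at 3 counts allows up to 0.0930 CPM in a control and 0.0974 CPM in an exposed library. Such limits cover counting error only, and they would be higher if both mates of a fragment were counted.

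The 4 abundant cone opsin genes all fell. OPN1SW (ENSDARG00000045677), a short-wavelength cone opsin gene, was at 507, 529.5 and 515 CPM in control libraries 1, 2 and 3 and at 247, 254 and 261 CPM in exposed libraries 1, 2 and 3. Every exposed value was thus below every control value by a wide margin, and the log2 fold change was -1.03 ± 0.03 (SE; adjusted p = 3.19e-20). The blue opsin gene opn1sw2 was at 82.3, 84.8 and 79.9 CPM without BPA and 39.0, 39.2 and 42.5 CPM under BPA, with a log2 fold change of -1.03 ± 0.05. The red opsin gene opn1lw2 was at 137, 133 and 120.5 CPM and then 62.6, 61.7 and 72.4 CPM (log2 fold change -0.99 ± 0.09). These 3 genes stood at 48.9% to 50.4% of their control means after exposure.

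The green opsin gene opn1mw1 fell less. It was at 204, 201 and 183 CPM without BPA and 121, 116 and 119.1 CPM under BPA, a log2 fold change of -0.73 ± 0.05 (adjusted p = 4.48e-14).

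The minor cone opsin genes did not pass the test. The red opsin gene opn1lw1 was at 1.01 ± 0.643 and 0.632 ± 0.142 CPM (adjusted p = 0.391). The green opsin gene opn1mw2 was at 2.24 ± 0.459 and 2.098 ± 0.803 CPM (adjusted p = 0.822). In the RefSeq gene order of another zebrafish assembly, opn1sw2, opn1lw1 and opn1lw2 follow each other without a gene between, as do opn1mw1, opn1mw2, opn1mw3 and opn1mw4. Neighbouring copies of the same colour are similar in sequence, and how reads that match more than 1 of them were counted is not stated. The split among the red genes and among the green genes is therefore uncertain.

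**Figure D2:**
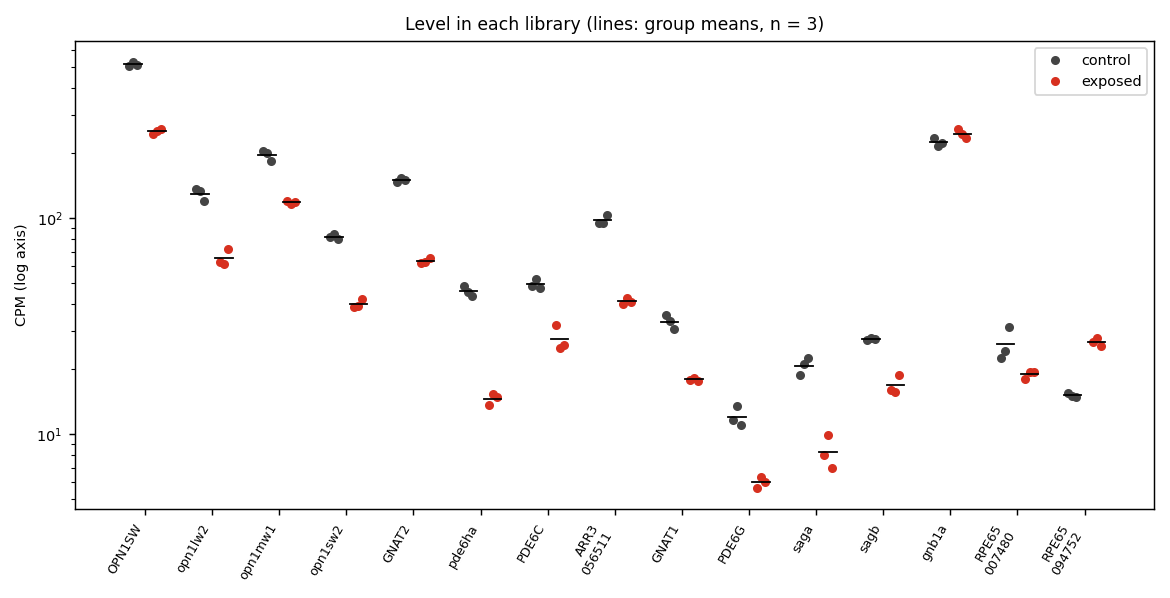
Level in CPM on a log axis of 15 genes in each of the 6 libraries, control in grey and exposed in red, with lines at the group means (n = 3). The exposed points lie below the control points for the cone and rod genes and for RPE65 ENSDARG00000007480, and above them for gnb1a and for RPE65 ENSDARG00000094752.

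All 3 transducin subunit types of cones fell. GNAT2, the cone alpha subunit that carries the signal from opsin to phosphodiesterase, was at 147, 154 and 151 CPM without BPA and 62.2, 62.7 and 65.8 CPM under BPA. The exposed libraries agreed closely, and the log2 fold change was -1.24 ± 0.03 (adjusted p = 5.63e-19). GNAT1, the rod alpha subunit, was at 35.7, 33.4 and 30.8 CPM and then 17.9, 18.3 and 17.7 CPM, a log2 fold change of -0.89 ± 0.06 (adjusted p = 1.82e-09). The beta subunit gene of cones, gnb3b, fell from 95.01 ± 7.27 to 50.6 ± 1.56 CPM.

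The abundant gene for the cone gamma subunit, GNGT2 (ENSDARG00000103543), fell from 134 ± 9.17 to 65.3 ± 2.64 CPM. The other GNGT2 gene (ENSDARG00000010680) was at 1.88, 1.00 and 3.47 CPM and then 0.195, 1.05 and 0.374 CPM. It was called (log2 fold change -1.93 ± 0.81, adjusted p = 0.00342) although its groups overlapped; without control library 3 its log2 fold change was -1.39 (adjusted p = 0.0607), and without exposed library 2 it was -2.84. A gene named GNB3 (ENSDARG00000004358), whose name lacks the paralog letter that the selection asked for, was just outside it and fell from 11.3 ± 2.55 to 6.51 ± 0.538 CPM (adjusted p = 2.10e-04).

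The beta 1 subunit genes gnb1a and gnb1b, which serve rod transducin but also G proteins of many other cells, went the other way. The gene gnb1a rose from 225 ± 9.44 to 247 ± 11.2 CPM (log2 fold change 0.14 ± 0.05, adjusted p = 0.00960); leaving out control library 2 (0.0517) or exposed library 1 (0.102) ended the call. Its paralog gnb1b rose from 161 ± 5.69 to 182 ± 9.27 CPM (log2 fold change 0.18 ± 0.05, adjusted p = 0.00190).

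Phosphodiesterase 6, the enzyme that breaks down cyclic GMP, consists of catalytic subunits held by small inhibitory ones, and 3 inhibitory genes and 1 catalytic gene of cones and rods fell. The cone catalytic gene PDE6C was at 48.8, 52.2 and 47.7 CPM without BPA and 32.0, 25.1 and 25.9 CPM under BPA (log2 fold change -0.85 ± 0.12, adjusted p = 9.73e-10). The cone inhibitory gene pde6ha was at 48.8, 45.6 and 43.5 CPM and then 13.6, 15.4 and 14.9 CPM (log2 fold change -1.65 ± 0.07, adjusted p = 5.90e-16). PDE6H, the other cone inhibitory gene, had 322, 324 and 178 counts without BPA and 22, 48 and 50 counts under BPA. It was left with 14.1% of its control level, the lowest share among the called members (log2 fold change -2.81 ± 0.29).

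Among the rod genes 1 of 3 passed, while 18.7% of all genes tested fell. The inhibitory gene PDE6G was at 11.6, 13.5 and 11.1 CPM and then 5.65, 6.38 and 6.04 CPM, so that it fell with no overlap (log2 fold change -1.002 ± 0.10, adjusted p = 2.65e-06). Of all genes tested, 23.2% were lower with no overlap. The catalytic genes named PDE6B were at 4.28 ± 1.00 and 3.69 ± 0.435 CPM (ENSDARG00000000380, adjusted p = 0.503) and at 4.43 ± 1.54 and 3.18 ± 0.133 CPM (ENSDARG00000011671, adjusted p = 0.136). The second of these passed without control library 2 (adjusted p = 0.0343). PDE6D, a prenyl-binding protein gene expressed in many cell types, fell from 4.15 ± 1.01 to 1.92 ± 0.442 CPM (adjusted p = 0.00153).

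None of the 7 tested genes for the cyclic nucleotide-gated channel, which carries the photoreceptor current, passed the test in either direction. All of them were low, with means of 0.445 to 3.09 CPM in the controls. The rod channel gene cngb1b came nearest, at 2.47, 3.20 and 3.60 CPM without BPA and 1.85, 2.19 and 2.08 CPM under BPA. Its groups did not overlap, which also held, on the lower side, for 23.2% of all genes tested. The log2 fold change was -0.59 ± 0.17 (adjusted p = 0.0934), and the gene passed without control library 1 (adjusted p = 0.0443). The cone channel gene cngb3.2 was at 2.61 ± 0.995 and 2.29 ± 0.221 CPM (adjusted p = 0.689). By DESeq2 also 0 of the 7 passed, and at an unadjusted p under 0.05 by edgeR 1 was lower and 0 higher.

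Of 7 tested genes for guanylate cyclase and its activators 3 fell and 4 did not pass, while 18.7% of all genes tested fell. The activator gene guca1c was at 3.84, 3.61 and 1.74 CPM and then 1.10, 0.476 and 0.983 CPM (log2 fold change -1.86 ± 0.50, adjusted p = 1.84e-04). The cyclase gene gucy2d, which makes cyclic GMP in photoreceptors, fell from 5.93 ± 1.28 to 3.57 ± 0.225 CPM (adjusted p = 0.00594, or 0.0602 without control library 2). The other cyclase gene, gucy2f, was at 0.803 ± 0.321 and 1.03 ± 0.521 CPM (adjusted p = 0.671).

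The remaining activators were scarce. The gene guca1aa had 18, 12 and 22 counts without BPA and 2, 4 and 4 counts under BPA. Its call (adjusted p = 0.0424) was lost on leaving out control library 1 (0.0803), control library 3 (0.152), exposed library 1 (0.162), exposed library 2 (0.131) or exposed library 3 (0.137). For guca1g the counts were 48, 46 and 34 in the controls and 0, 28 and 18 in the exposed libraries, which did not pass (adjusted p = 0.0752) and did so without exposed library 2 (0.0495).

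Of 16 tested genes of the light response's shutoff 10 fell and 6 did not pass, while 18.7% of all genes tested fell. Arrestins cap the activated opsin, and all 4 arrestin genes fell. The cone arrestin gene ARR3 (ENSDARG00000056511) was at 95.5, 95.6 and 104 CPM without BPA and 40.0, 42.9 and 40.9 CPM under BPA, a log2 fold change of -1.25 ± 0.05 (adjusted p = 5.06e-17). The second ARR3 gene (ENSDARG00000098475) gave nearly the same change, from 41.1 ± 1.21 to 17.4 ± 1.06 CPM (log2 fold change -1.24 ± 0.06).

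The rod arrestin genes differed from each other. The gene saga was at 18.9, 21.1 and 22.5 CPM and then 7.99, 9.95 and 7.02 CPM (log2 fold change -1.32 ± 0.16, adjusted p = 1.35e-09). Its paralog sagb was at 27.3, 27.9 and 27.6 CPM and then 16.0, 15.7 and 18.8 CPM (log2 fold change -0.71 ± 0.08, adjusted p = 5.63e-07). Neither gene's groups overlapped, which also held, on the lower side, for 23.2% of all genes tested. Whether the falls of saga and sagb differ was not tested.

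Opsin kinases phosphorylate the active opsin before arrestin binds. The cone kinase gene GRK7 (ENSDARG00000020602) fell from 19.9 ± 3.87 to 12.7 ± 1.73 CPM, the other GRK7 gene (ENSDARG00000055534) from 2.55 ± 0.408 to 1.16 ± 0.135 CPM, and GRK1 from 6.49 ± 1.598 to 3.46 ± 0.730 CPM. In contrast grk1b was at 5.37, 5.45 and 5.21 CPM and then 5.16, 5.00 and 6.22 CPM. Its groups overlapped (log2 fold change 0.03 ± 0.10, adjusted p = 0.918).

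RGS9 speeds the return of transducin to its inactive state, and recoverin holds opsin kinase back when calcium is high. RGS9 (ENSDARG00000037925) fell from 8.12 ± 1.23 to 4.29 ± 0.504 CPM, while RGS9 (ENSDARG00000045156) was at 2.14 ± 0.458 and 1.84 ± 0.600 CPM (adjusted p = 0.667). The anchor genes RGS9BP (ENSDARG00000086756) and rgs9bp (ENSDARG00000009466) did not pass (adjusted p = 0.186 and 0.570). The abundant recoverin gene RCVRN (ENSDARG00000009637) was at 36.7, 40.5 and 39.4 CPM and then 28.5, 30.2 and 28.4 CPM, a log2 fold change of -0.42 ± 0.05 (adjusted p = 4.87e-05). This was the smallest fall among the members called lower.

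A second RCVRN gene (ENSDARG00000019902) was called at an adjusted p of 0.0399. That call was lost without control library 2 (0.0853), control library 3 (0.118), exposed library 1 (0.0783), exposed library 2 (0.0609) or exposed library 3 (0.181). The recoverin genes rcvrna and rcvrnb did not pass (adjusted p = 0.687 and 0.264), and rcvrnb was higher with an adjusted p of 0.0364 without control library 3.

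Peripherin, encoded by PRPH2, shapes the rim of the outer segment discs. PRPH2 (ENSDARG00000038018) was at 22.9, 19.1 and 19.7 CPM and then 10.4, 11.5 and 10.4 CPM (log2 fold change -0.93 ± 0.09), and PRPH2 (ENSDARG00000014840) fell from 9.40 ± 1.83 to 3.91 ± 0.740 CPM. The homeobox factor crx switches on photoreceptor genes. The gene named crx (ENSDARG00000011989) was at 9.99, 9.54 and 10.0 CPM and then 6.66, 6.69 and 4.45 CPM (log2 fold change -0.74 ± 0.19, adjusted p = 8.55e-04).

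A gene named CRX (ENSDARG00000043483) fell from 10.2 ± 0.940 to 7.02 ± 1.56 CPM (adjusted p = 0.0100, or 0.113 without exposed library 2). NR2E3, a nuclear receptor of the photoreceptor lineage, was counted here with the rod genes, while both crx genes were counted as shared. It was at 1.83, 2.82 and 2.54 CPM and then 0.585, 1.14 and 0.796 CPM (log2 fold change -1.50 ± 0.32, adjusted p = 0.00182). The rod factor gene nrl had 44 counts over all 6 libraries and was not tested.

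RPE65 rebuilds the light-sensitive retinoid, chiefly in the pigment epithelium behind the retina, and its 3 genes went different ways. ENSDARG00000007480 was at 22.7, 24.2 and 31.5 CPM without BPA and 18.1, 19.4 and 19.5 CPM under BPA (log2 fold change -0.46 ± 0.15, adjusted p = 0.00101). ENSDARG00000094752 was at 15.5, 15.1 and 14.9 CPM and then 26.9, 27.9 and 25.6 CPM, with all exposed values above all control values (log2 fold change 0.82 ± 0.04, adjusted p = 3.45e-08). ENSDARG00000054420 was at 2.74 ± 0.553 and 3.15 ± 0.738 CPM (adjusted p = 0.633). In the RefSeq order rpe65b and rpe65c are neighbours, and the name table does not say which of the 3 is which.

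Cone and rod genes were then set side by side. Of 20 tested cone genes 15 fell and 0 rose, with a median log2 fold change of -1.01; of 11 tested rod genes 5 fell and 0 rose, with a median of -0.71. By DESeq2, and at an unadjusted p under 0.05 by edgeR, 0 cone and 0 rod genes rose either. The difference between the classes was not tested. Among genes with a mean of at least 1 CPM, where 21.9% of all 17691 genes fell, 15 of 18 cone genes and 5 of 9 rod genes fell. Over those genes the medians were -1.03 and -0.72. The tested cone and rod genes under 1 CPM gave 0 of 2 and 0 of 2 calls. All cone and rod genes without a call were low, with means of at most 3.99 CPM (PDE6B, ENSDARG00000000380). Some genes at such levels were called all the same. These were GNGT2 (ENSDARG00000010680, mean 1.33 CPM), NR2E3 (1.62 CPM) and GRK7 (ENSDARG00000055534, 1.85 CPM). Over the genes called lower alone, the medians were close, at -1.04 for cone and -1.002 for rod genes. Those genes were picked by their fall, so this closeness cannot show whether the classes fell alike. The part of expression level in the difference between the classes was not tested.

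**Figure D3:**
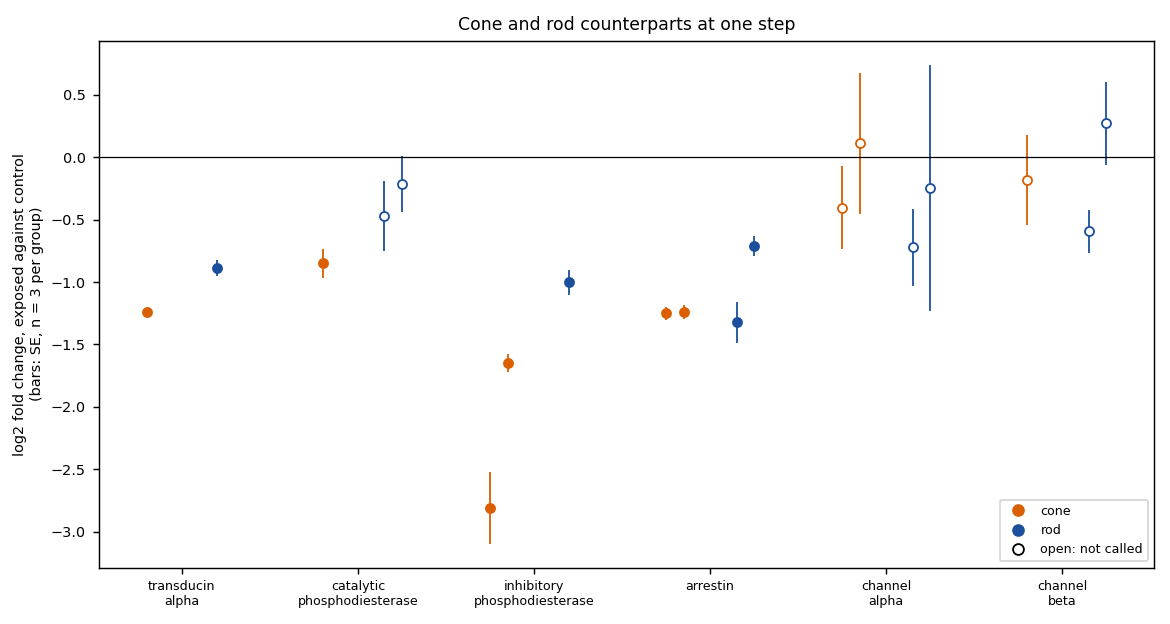
Log2 fold change, exposed against control, of cone (orange) and rod (blue) genes with the same task; bars are SE over 3 libraries per group, and open points did not pass an adjusted p of 0.05. The cone transducin alpha gene (-1.24) lies below its rod counterpart (-0.89) and both cone inhibitory phosphodiesterase genes (-1.65 and -2.81) lie below PDE6G (-1.002), while the arrestin genes interleave.

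A ratio of CPM within a library does not depend on library scaling, but its size depends on the lengths of the genes, so only its change between libraries is read here. Without opsins, the summed rod genes per summed cone genes stood at 0.167, 0.172 and 0.172 in control libraries 1, 2 and 3 and at 0.195, 0.212 and 0.207 in exposed libraries 1, 2 and 3. Each exposed library thus had relatively more transcript of these rod genes, while both sums fell. The rod sum went from 111 ± 1.86 to 61.4 ± 2.42 CPM, which is 55.3% of its control level, and the cone sum from 651 ± 5.50 to 299.8 ± 1.73 CPM, which is 46.0% (SD, n = 3). With the cone opsins included, the cone sum stood at 49.4% of its control level.

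Pairs of single genes did not all go the same way. GNAT1 per GNAT2 was at 0.242, 0.217 and 0.204 in the controls and 0.287, 0.292 and 0.269 in the exposed libraries. The rod arrestins saga and sagb per both ARR3 genes were at 0.347 ± 0.0106 and then 0.429 ± 0.0166, but saga alone had a log2 fold change of -1.32 against -1.25 and -1.24 for the ARR3 genes. Among the uncalled channel genes, the rod gene CNGA1 (ENSDARG00000012125) was at -0.72 against -0.40 and 0.11 for the cone CNGA3 genes, and cngb1b at -0.59 against -0.18 for cngb3.2. None of these ratios or differences was tested, since the genes were chosen with earlier results known, and 3 against 3 libraries could give an exact permutation p of 0.1 at the smallest.

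**Figure D4:**
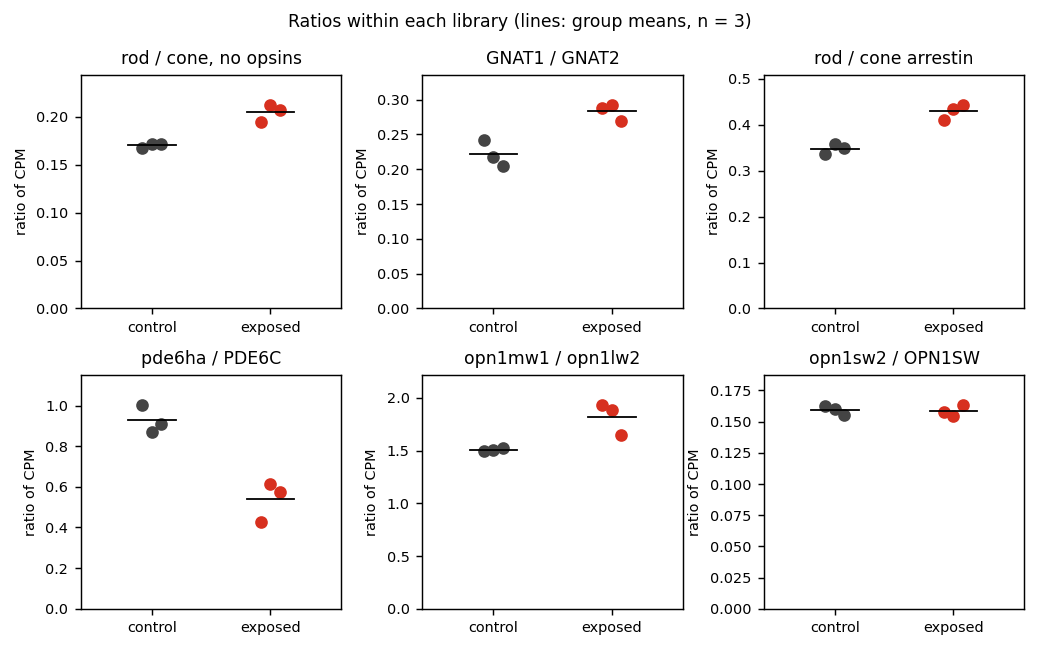
Ratio of CPM within each library, control in grey and exposed in red, with lines at the group means (n = 3) and axes from 0. The 3 rod to cone ratios and opn1mw1 per opn1lw2 are higher in all exposed libraries, pde6ha per PDE6C is lower in all of them, and opn1sw2 per OPN1SW overlaps between the groups.

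The balance within the cones was partly kept. The blue opsin gene per OPN1SW was at 0.162, 0.160 and 0.155 in the controls and 0.158, 0.154 and 0.163 in the exposed libraries, and the red opsin gene opn1lw2 per OPN1SW at 0.252 ± 0.0180 and 0.258 ± 0.0177, both with overlap. The green opsin gene opn1mw1 per opn1lw2 was at 1.49, 1.51 and 1.52 and then 1.93, 1.89 and 1.65, higher in each exposed library. The inhibitory gene pde6ha per catalytic PDE6C was at 1.00, 0.872 and 0.912 and then 0.427, 0.616 and 0.573, lower in each exposed library. In rods PDE6G per summed PDE6B genes was at 1.41 ± 0.315 and 0.876 ± 0.0291, also without overlap.

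Other genes linked to the eye, not all of them specific to it, gave a mixed picture. The share of all genes tested was 18.7% lower and 20.1% higher. Of 17 tested genes of the outer segment, disc and calcium exchange list, 6 fell, 0 rose and 11 did not pass (median log2 fold change -0.61). Among its most abundant genes the retinoschisin gene rs1a fell from 25.2 ± 0.223 to 13.01 ± 0.304 CPM and the sodium-calcium exchanger gene slc24a2 (ENSDARG00000042988) from 10.2 ± 0.874 to 5.84 ± 1.11 CPM. Of 21 tested visual cycle, matrix and retinoid carrier genes 8 fell, 3 rose and 10 did not pass (median -0.16). There the interphotoreceptor retinoid-binding protein gene rbp3 fell from 27.4 ± 1.46 to 16.7 ± 0.668 CPM and the retinaldehyde-binding protein gene rlbp1a from 22.8 ± 1.86 to 8.65 ± 1.01 CPM. RDH10 (ENSDARG00000058730) fell from 44.4 ± 3.23 to 28.6 ± 2.99 CPM, and RBP4, by far the most abundant, only from 3473 ± 24.1 to 3180 ± 91.8 CPM. The gene rlbp1a is also counted in the Mueller glia list below.

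Of 21 photoreceptor fate regulators 9 fell, 2 rose and 10 did not pass (median -0.50), while 18.7% of all genes fell and 20.1% rose. NEUROD1, a bHLH factor that photoreceptors need, fell from 35.7 ± 5.66 to 25.3 ± 2.86 CPM, OTX2 was at 22.6 ± 3.97 and 19.1 ± 1.38 CPM (adjusted p = 0.0903), and PRDM1 rose from 27.4 ± 1.43 to 39.7 ± 2.31 CPM. Of 17 tested pineal and non-visual opsin and melatonin genes 1 fell, 2 rose and 14 did not pass (median 0.32). All of these were scarce, with means of at most 3.24 CPM (tmtops2a). TPH1 (ENSDARG00000029432), for the first step of serotonin and melatonin synthesis, rose from 1.90 ± 0.447 to 4.01 ± 0.559 CPM, and the melanopsin gene OPN4 (ENSDARG00000007553) fell from 3.03 ± 0.211 to 1.595 ± 0.296 CPM. Of 19 ribbon synapse and bipolar cell genes 8 fell and 0 rose (median -0.53), among them syt5b, a synaptotagmin gene, from 31.7 ± 4.26 to 17.1 ± 0.682 CPM. The genes ctbp2a (47.2 ± 3.23 to 36.4 ± 2.45 CPM) and ISL1 (12.4 ± 1.06 to 9.02 ± 0.526 CPM) fell less. PRKCA (ENSDARG00000115657) was at 16.9 ± 2.51 and 18.3 ± 0.332 CPM (adjusted p = 0.438). For the ribbon synapse and bipolar cell list and the outer segment list 0 genes rose by DESeq2 or at an unadjusted p under 0.05 by edgeR.

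**Figure D5:**
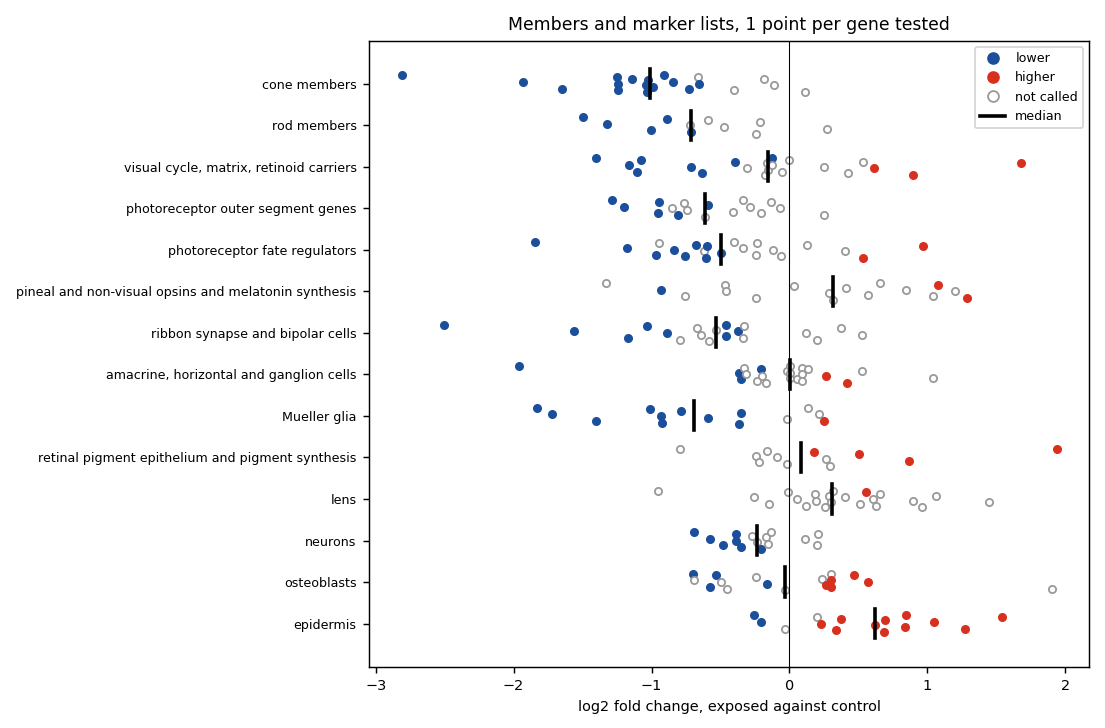
Log2 fold change, exposed against control, of each tested gene of the cone and rod classes and of 12 marker lists; blue and red points passed an adjusted p of 0.05, and black bars are medians. The cone (-1.01) and rod (-0.71) medians lie left of 0 together with outer segment, Mueller glia, bipolar and fate regulator genes. The pineal and non-visual opsin (0.32), lens (0.31) and epidermis (0.62) medians lie right of it, but most pineal and lens genes did not pass.

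Markers of neighbouring cell types differed in whether they moved with the photoreceptor genes. Of all genes tested, 18.7% fell and 20.1% rose. Of 14 Mueller glia genes 10 fell, 1 rose and 3 did not pass (median log2 fold change -0.69). The glutamine synthetase gene GLUL (ENSDARG00000099776) fell most, from 736 ± 3.17 to 207 ± 8.31 CPM (-1.83). Of the other abundant genes, AQP1 (ENSDARG00000023713) was at -1.01, GLUL (ENSDARG00000100003) at -0.36 and apoeb at -0.35. The summed list was at 2759 to 2811 CPM in the controls and 1745 to 1753 CPM in the exposed libraries. Much of that fall came from GLUL (ENSDARG00000099776). Several genes of the list, such as GLUL and apoeb, are also expressed outside the retina. Of 15 neuron genes 7 fell and 0 rose (median -0.23), with a summed level of 443 to 464 CPM and then 351 to 362 CPM (higher at an unadjusted p under 0.05 by edgeR in 1, by DESeq2 in 0). Of 22 amacrine, horizontal and ganglion cell genes 4 fell and 2 rose (median 0.00), so the share that fell was near that of all genes. Their summed level overlapped, at 414 to 423 CPM and 417 to 445 CPM. The most abundant of them, TFAP2A, rose from 113 ± 4.93 to 151 ± 8.18 CPM, so the sum does not show that the others held their level. ELAVL3 and ELAVL4, which fell, are counted in this list and in the neuron list.

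Lens and pigment genes did not fall with the photoreceptor genes. By the same test 18.7% of all genes fell and 20.1% rose. Of 22 tested lens genes 0 fell and 1 rose (median 0.31), with 0 lower by DESeq2 or at an unadjusted p under 0.05 by edgeR. The summed lens level was 89.1 to 101 CPM and then 109 to 116 CPM. Of 12 retinal pigment epithelium and pigment synthesis genes 0 fell and 4 rose (median 0.08), with a summed level of 154 to 167 CPM and then 179 to 184 CPM; 1 was lower at an unadjusted p under 0.05 by edgeR and 0 by DESeq2. Pigment synthesis genes are not specific to the retinal pigment epithelium, so this list does not show how that epithelium changed. Of the 3 RPE65 genes, which are not in the list, 1 fell and 1 rose. Epidermis genes rose in 11 of 15 cases and fell in 2 (median 0.62). The summed level of the epidermis genes was 15748 to 16261 CPM and then 27190 to 27904 CPM. The part of cell makeup in the fall of the photoreceptor genes was not tested.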

How the data were processed

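RNA from sorted cells was sequenced in 6 libraries, 3 per group. The deposited table holds raw counts per Ensembl gene; the authors made it on the GRCz11 build with featureCounts 2.0.6, STAR 2.7.10a and R 4.4.2 among their tools, per the submitters' processing notes, and the strand setting and the treatment of shared reads are not given in the sources used here. Most nonzero counts (76.1% to 81.7% per library) were even, which would follow if each fragment had been counted by its 2 mates, and halved counts were tried.

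Gene names came from a table of Ensembl identifiers, which named 29201 of 32520 genes. For 76 of 238 marker list symbols only the name without its paralog letter matched, and all genes of that name were counted. The lists can therefore include paralogs that were not meant. Counts were filtered with filterByExpr (minimum count 10, minimum total 15), scaled by TMM and tested with edgeR 4.0.16 (robust quasi-likelihood F-test, R 4.3.3, limma 3.58.1), with Benjamini-Hochberg adjustment over 21194 genes and a threshold of 0.05. CPM are TMM-scaled; SE are of the difference of mean log2 CPM (prior count 2). The fit was tested on simulated data. Alternatives were DESeq2 1.42.0, its size factors, no filter, halved counts, a replicate block and leaving out each library. In each of the 12 marker lists, the 4 genes with the highest mean CPM could be named, and every member could be; SP7, bglap and GNB3 are named outside that rule, after their values were seen. Members and lists were chosen with earlier results of these data known, and the gene pairs for ratios after the counts were seen. An item that the selection would hold is not reported here, and no count, sum or median of members includes it.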

Additional observations from a re-analysis of the deposited data

How the results depend on the processing

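Under DESeq2, DESeq2's size factors, no filter and halved counts, 33 members were lower and 3 higher, as in the reported fit, with 15 cone and 5 rod genes lower in each. With halved counts guca1aa and CNGA1 (ENSDARG00000029898) were no longer tested. The replicate numbers did not pair the libraries (correlations of same-numbered deviations -0.0131, -0.00375 and 0.0119); with a replicate block 33 members were lower and 3 higher, and over all genes 3882 and 4282. Leaving out each library gave 30 to 33 members lower and 2 to 4 higher, a cone median log2 fold change of -1.04 to -0.97 and a rod median of -0.74 to -0.65. Of the 33 members called lower, 28 kept their call in every alternative, as did 2 of the 3 called higher. The call of guca1aa was lost with no filter (adjusted p = 0.110) and with the block (0.0964), and guca1g passed with no filter (0.0305), halved counts (0.0332) and the block (0.0492). Directions turned only for uncalled, scarce genes or those near 0, and the cause was not tested. CNGA1 (ENSDARG00000029898) was at 0.23 with the block and at -0.74 to 1.23 on leaving out libraries. The same ranges were -0.22 to 0.44 for CNGA3 (ENSDARG00000012297), -0.46 to 0.072 for cngb3.2, -0.44 to 0.11 for opn1mw2, -0.37 to 1.87 for GUCA1A (ENSDARG00000100747), -0.14 to 0.58 for gucy2f, -0.073 to 0.096 for grk1b and -0.014 to 0.30 for RPE65 (ENSDARG00000054420).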
